A study of Mus musculus with 18 samples.

Results

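The genes described here are the Hox genes, taken as every row of the count table whose gene symbol is Hox followed by the cluster letter a, b, c or d and a number. This rule found 39 of the 55486 genes in the table. The rule itself uses no measured value, though it was chosen with earlier results of these data known. They lie in 4 clusters: Hoxa with 11 members (GRCm38 chromosome 6, 52155590 to 52260880), Hoxb with 10 (chromosome 11, 96194316 to 96368256), Hoxc with 9 (chromosome 15, 102921103 to 103036852) and Hoxd with 9 (chromosome 2, 74668310 to 74765142). The number in a symbol is the paralogue number, the place of the gene in the order that the clusters share. Paralogues 1 to 3 are called anterior below (8 members), 4 to 8 central (15 members) and 9 to 13 posterior (16 members).

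Hox genes encode homeodomain transcription factors that give cells a position along the body axis. Within a cluster, genes near the low-numbered end act towards the head and genes near the high-numbered end act towards the tail and in distal limbs. Fibroblasts are known to keep a Hox pattern of the body site they came from, also in culture, and Hox proteins bind DNA together with cofactors of the TALE homeodomain class (Pbx, Meis and Pknox proteins). In the mammary gland, Hoxc8 is known for its part in placing the mammary placodes, Hoxc6 for the thoracic glands, and Hoxa9, Hoxb9 and Hoxd9 for gland growth in pregnancy.

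The libraries were made from mammary gland fibroblasts of adult female FVB/n mice (normal fibroblasts, NFs) grown in culture, sorted as EpCAM-/CD49f-/CD45-/CD31- cells without (CD26-) or with (CD26+) the surface peptidase CD26. There were 4 groups, each kept for 7 days in its medium. Replicates 1 to 3 are CD26- NFs given control conditioned medium, replicates 4 to 9 are CD26- NFs given conditioned medium of tumor cells (CM), replicates 10 to 12 are CD26+ NFs given the control medium, and replicates 13 to 18 are CD26+ NFs given CM. CM came from the lines 13-MCB-17, 10-SJK-221, 18-MCB-12, 13-MCB-44, 13-MCB-90 and 13-MCB-138, in this order in replicates 4 to 9 and again in replicates 13 to 18. These lines were grown from tumors of WEPtn mice (WapCre;Cdh1F/F;PtenF/F), a model of invasive lobular breast cancer in which Cre is driven by the milk protein promoter Wap. Per the study's methods, NF donors carried no Cre (Cdh1F/F;PtenF/F or mTmG animals), the third, the fourth and the fifth glands of several mice were pooled for a sort, and the cells were used at low passage. Pooling of thoracic and inguinal glands means that these libraries cannot assign a Hox level to a gland position. Nothing in the labels says that replicates came from separate sorts, so p-values measure the spread between these cultures, which may be technical in the control groups and includes the difference between lines in CM.

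Libraries held 9725723 to 14585349 counts, of which 2305 to 5357 fell on Hox genes. Levels are given as CPM, counts scaled to a common library size after TMM normalization, and 1 count was worth 0.0677 to 0.0968 CPM. Dpp4, the gene of CD26, had 0 to 11 counts in CD26- libraries, 0 to 1 in CD26+ control libraries and 8 to 104 in CD26+ CM libraries, so at the RNA level the sorted difference was not visible in control medium. The 9 fibroblast markers were detected in every group. Their summed level was 8810 to 21400 CPM in CD26- libraries and 28800 to 80200 CPM in CD26+ libraries. The 12 epithelial markers, likewise all detected in every group, summed to 2780 to 4830 CPM in CD26- libraries against 651 to 1560 CPM in CD26+ libraries. The 9 skeletal muscle markers summed to 47.3 to 127 CPM in CD26- libraries against 6.23 to 19.7 CPM in CD26+ libraries, mostly from Acta1, and Pax7, Myf5, Myh3 and Ckm had no count in any CD26+ library. Immune, endothelial and Schwann cell markers summed to at most 29.7, 9.47 and 5.04 CPM in any library. Of the adipocyte markers, 3 of 3 tested were higher in CD26+ NFs in either medium, and of 5 tested pericyte markers 1 was higher and 3 were lower in control medium.

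RefSeq promoters (GRCm38.p6, 300 bases that end shortly after a start given by RefSeq) were found for 22 of the 39 Hox genes, with 24 promoters in all. The RefSeq start lay within 1000 bases of the start of the gene in the count table for 18 of them and farther inside the gene for the other 6. Those 6 include the promoter of Hoxa7, 3281 bases inside, and those of Hoxa9, Hoxc4 and Hoxd4, whereas the starts of Hoxd8, Hoxb8 and Hoxb4 are the same in both. Those of 4 members are shown because they stand for the 4 patterns in the data that have an entry: Hoxd8, whose response to CM differed between the cell types, Hoxb8, which was higher in CD26+ NFs and fell there in CM, Hoxa7, which rose in CM in CD26- NFs, and Hoxb4, which was lower in CD26+ NFs in CM. Capitals mark matches to the letters of the retinoic acid receptor core motif (AGGTCA) or of the TATA box (TATAAA) on either strand. TGACCT and TTTATA are the same letters read on the other strand, as at both marked stretches of Hoxb8. Neither a strand nor a distance from the start was asked for, so a match shows the letters only.
Hoxd8 (chr2:74704365-74704664, plus strand): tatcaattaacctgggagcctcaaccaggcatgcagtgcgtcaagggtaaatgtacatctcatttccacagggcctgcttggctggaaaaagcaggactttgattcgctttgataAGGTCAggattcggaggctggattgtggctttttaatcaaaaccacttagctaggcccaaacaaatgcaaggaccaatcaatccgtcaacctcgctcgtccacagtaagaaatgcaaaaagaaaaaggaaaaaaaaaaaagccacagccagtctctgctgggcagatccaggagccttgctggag
Hoxb8 (chr11:96281655-96281954, plus strand): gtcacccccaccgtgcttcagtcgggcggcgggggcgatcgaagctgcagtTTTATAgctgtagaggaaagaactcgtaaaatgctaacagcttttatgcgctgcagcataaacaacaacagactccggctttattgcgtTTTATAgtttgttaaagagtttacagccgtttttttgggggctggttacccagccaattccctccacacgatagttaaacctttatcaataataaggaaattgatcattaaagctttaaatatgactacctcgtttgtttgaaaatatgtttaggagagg
Hoxa7 (chr6:52218524-52218823, minus strand): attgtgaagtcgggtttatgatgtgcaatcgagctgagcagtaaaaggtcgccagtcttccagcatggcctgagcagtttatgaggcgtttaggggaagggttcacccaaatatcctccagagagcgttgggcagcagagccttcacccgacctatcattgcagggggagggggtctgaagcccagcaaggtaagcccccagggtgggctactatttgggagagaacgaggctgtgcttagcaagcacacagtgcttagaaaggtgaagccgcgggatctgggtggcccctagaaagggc
Hoxb4 (chr11:96318017-96318316, plus strand): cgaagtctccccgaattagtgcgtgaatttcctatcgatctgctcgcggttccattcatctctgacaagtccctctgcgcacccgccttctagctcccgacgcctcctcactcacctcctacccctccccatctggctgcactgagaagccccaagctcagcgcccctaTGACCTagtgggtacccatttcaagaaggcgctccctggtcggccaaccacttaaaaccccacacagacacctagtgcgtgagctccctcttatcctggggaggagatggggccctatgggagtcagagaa
The AGGTCA motif was found in 7 of the 22 Hox genes with a promoter (Hoxa5, Hoxb4, Hoxc4, Hoxd3, Hoxd4, Hoxd8 and Hoxd10) and in 16.3% of all 32851 promoters of the same length. TATAAA was found in 4 Hox genes (Hoxa10, Hoxb8, Hoxd4 and Hoxd13) and in 13.6% of all promoters. The Meis motif TGACAG was found in 2 (Hoxa2 and Hoxa3; 19.2% of all promoters) and the Pbx-Hox composite TGATTNAT in 2 (Hoxa2 and Hoxd11; 3.22% of all promoters). No overlap between different motifs was searched for. Hox promoters had a median GC content of 57.7% and a median of 14.5 CpG, against 52.7% and 7 over all promoters. Hoxd8, at 46.7% GC with 6 CpG, and Hoxb8, at 42.3% GC with 13 CpG, were below the Hox median in GC.

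Which Hox genes these cells transcribe was read from the level per exon length. Counts were found up to paralogue 11 in Hoxa and Hoxc and up to 9 in Hoxb, in Hoxd mainly at 8, and the far posterior end was at or near 0 apart from Hoxc13. In CD26+ NFs in control medium, Hoxb9 stood highest with 33.3 ± 3.74 CPM per kb of exon (SD, n = 3), followed by Hoxc10 with 25.3 ± 2.11, Hoxc6 with 15.1 ± 1.51, Hoxc8 with 14.4 ± 0.830, Hoxd8 with 9.07 ± 1.08 and Hoxc9 with 7.16 ± 0.467. The libraries of Hoxb9 (29 to 35.7 CPM per kb) and Hoxc10 (23.5 to 27.6) did not overlap in that group, whereas those of Hoxc6 (13.9 to 16.8) and Hoxc8 (13.6 to 15.3) did. In CD26- NFs in control medium, Hoxc10 with 15.6 ± 0.320 and Hoxb9 with 14.7 ± 0.925 CPM per kb overlapped, and Hoxc6 (10.2 ± 0.888) and Hoxc8 (9.58 ± 0.248) came next. In CM the order of the group means changed in both cell types, with Hoxc10 first and Hoxb9 in place 4, at 7.38 ± 1.88 CPM per kb in CD26- NFs and 12.1 ± 4.56 in CD26+ NFs (SD, n = 6). The Hoxb9 libraries in CD26+ CM (8.47 to 19.8) overlapped those of Hoxc10 (15.0 to 23.0). In CD26- CM they (5.52 to 9.71) overlapped those of Hoxc8 (8.09 to 11.9).

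**Figure D1:**
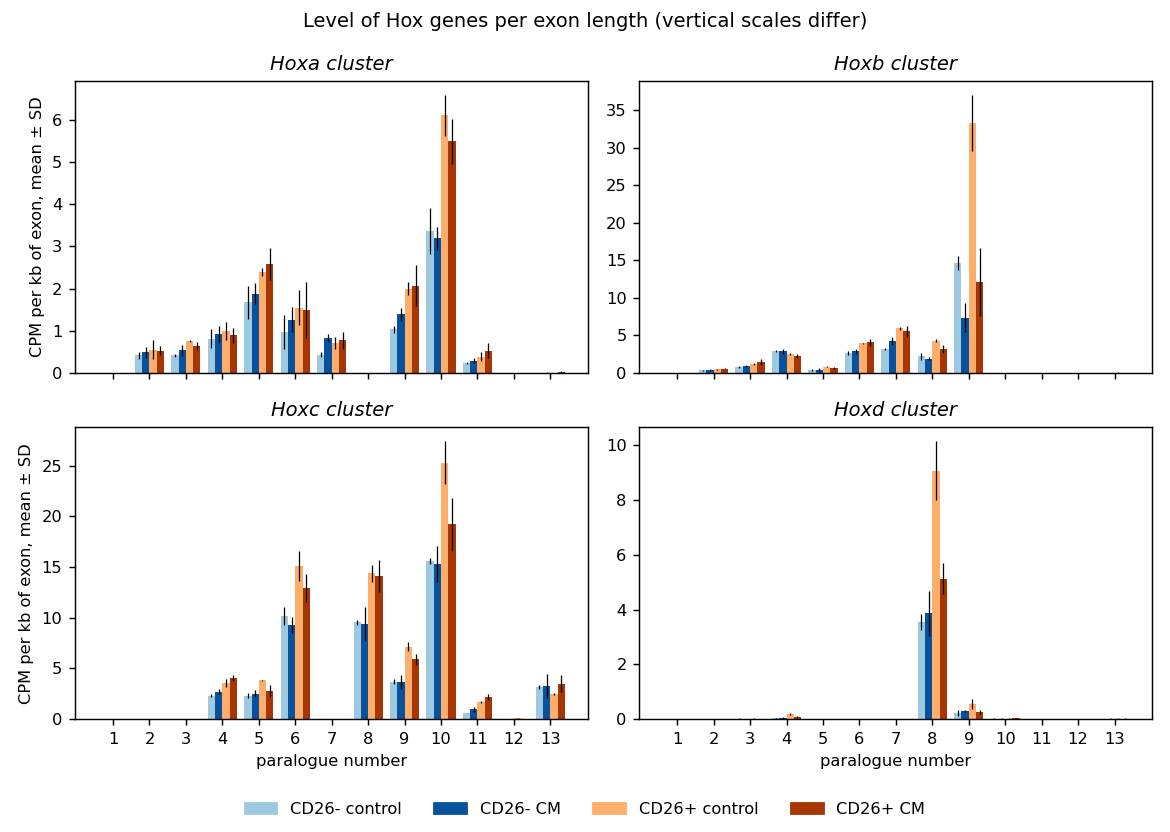
Mean level of each of 38 Hox genes in CPM per kb of exon (vertical axis, linear from 0, scale set per panel) against paralogue number, with 1 panel per cluster and 1 bar per group; error bars are SD over 3 control or 6 CM libraries. Hoxb9, Hoxc6, Hoxc8, Hoxc10 and Hoxd8 carry most of the signal, and the bars of Hoxb9 fall from 33.3 to 12.1 CPM per kb in CD26+ NFs with CM.

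Of the 39 members, 28 had enough counts to be tested, and 11 did not. Hoxb1, Hoxd1, Hoxd11 and Hoxd12 had 0 counts in all 18 libraries, which allows at most 3 counts in a library, or 0.203 to 0.290 CPM. Hoxa13, Hoxb13, Hoxc12, Hoxd3, Hoxd10 and Hoxd13 had at most 3 counts in any library, and Hoxd4 at most 8. Hoxd10, a gene of the posterior Hoxd cluster with a known role in the mammary gland, had 0 to 2 counts per library in every group. Many of the exon bases of Hoxd3 (62.3%) and Hoxd4 (52.3%) are shared with other genes on the same strand, so reads there may not have been assigned. Among tested members, Hoxd9 passed the filter on low counts only through CD26+ control libraries and Hoxa11 only through CD26+ CM libraries. Both could therefore be tested only because 1 group was higher, and the counts below cover the 28 tested members, not all Hox genes.

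Summed over all members, the Hox level was 224 ± 2.85 CPM in CD26- control, 211 ± 20.7 CPM in CD26- CM, 382 ± 19.4 CPM in CD26+ control and 291 ± 24.7 CPM in CD26+ CM libraries (SD, n = 3, 6, 3 and 6). The Hoxc cluster held 45.6% to 52.9% of this sum in the means of the 4 groups. Hoxb9 alone gave 56.5% of the Hoxb sum in CD26- control, 37.8% in CD26- CM, 66.2% in CD26+ control and 43.5% in CD26+ CM libraries. Without Hoxb9 the sum over all members was slightly higher in CM in CD26- NFs, and its drop in CD26+ NFs shrank, as given at the end. Hoxd8 alone gave 92.8% to 93.9% of the Hoxd sum in the 4 groups, so that sum largely follows 1 gene. These are sums over members and carry no test.

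**Figure D2:**
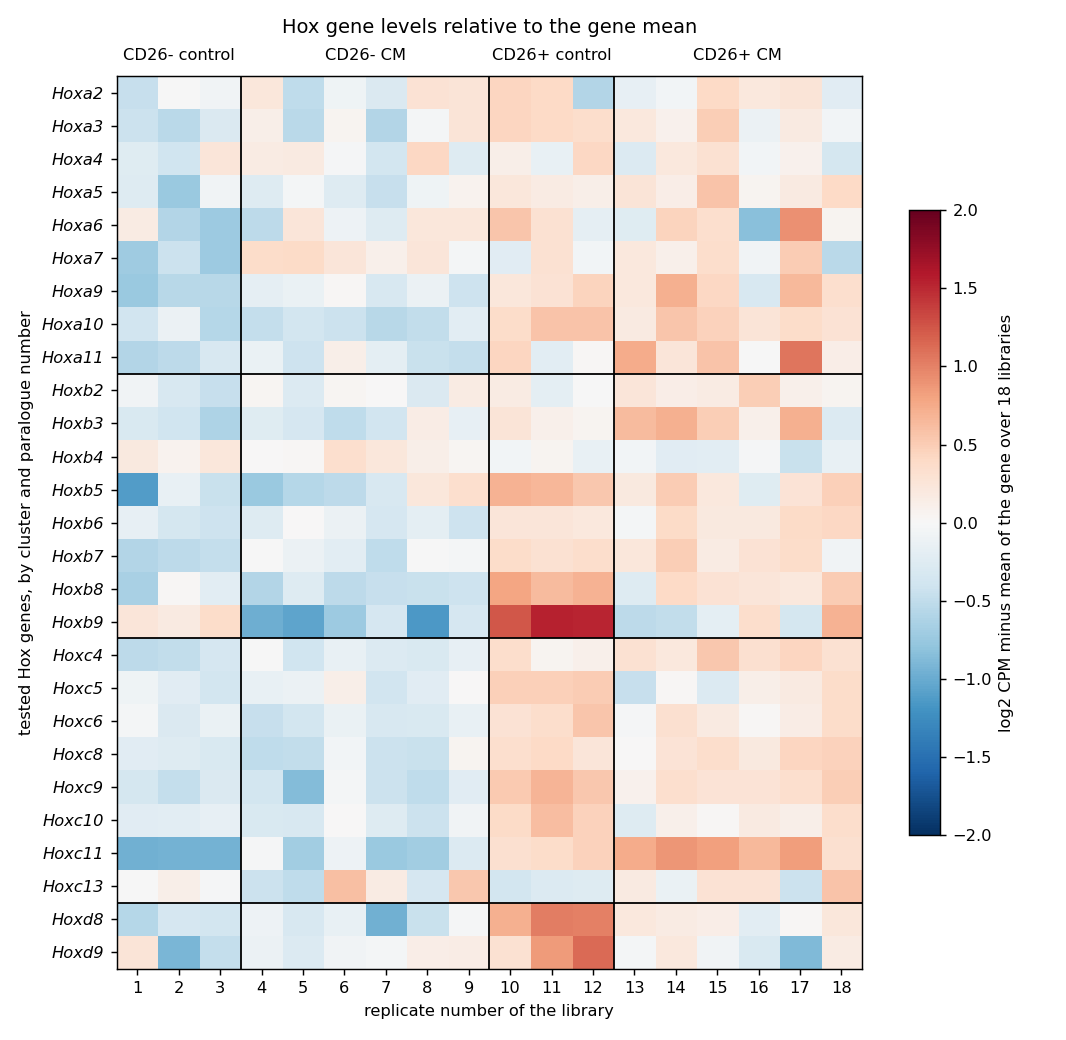
Log2 CPM of 27 tested Hox genes (rows, by cluster and paralogue number) in the 18 libraries (columns, by group), each relative to the mean of the gene over all libraries; red is higher, blue lower, and the color scale ends at 2 and -2. CD26+ libraries are mostly red and CD26- libraries mostly blue, with Hoxb4 the other way round and Hoxb9 set apart in the 3 CD26+ control libraries.

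The comparison of CD26+ with CD26- NFs in control medium asks whether the cell types differ in positional genes before they meet tumor factors. Most of the tested Hox genes were higher in CD26+ NFs. Of the 28 tested members, 20 were higher and 1 was lower at an FDR under 0.05 (edgeR quasi-likelihood test, Benjamini-Hochberg adjusted over 14273 genes), while 25.0% of all tested genes were higher and 25.4% lower. Without Hoxd9 and Hoxa11, which needed 1 group to pass the filter, 19 of 26 were higher and 1 was lower. The median log2 fold change of the members was 0.70 against 0.0064 over all tested genes. None of the 28 passed a log2 fold change of 2 together with the FDR in edgeR, where 5.97% of all tested genes did. With no filter on low counts in edgeR, and under DESeq2, 1 member was past that limit, the low-count Hoxd4. At an unadjusted p under 0.05 the count was 21 (55.9% of all tested genes). The libraries of the cell types did not overlap in 24 of the 28, against 64.7% of all tested genes.

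Hoxd8, a central gene of the Hoxd cluster, gave the smallest p. It had 8.81, 10.3 and 10.1 CPM in CD26- control libraries and 21.5, 26.8 and 26.4 CPM in CD26+ control libraries, a log2 fold change of 1.35 ± 0.18 (SE, FDR 6.32e-06). The groups were well apart, and each CD26+ library was more than 10 CPM above each CD26- library. Hoxa10, a posterior gene also known from the uterus, stood at 10.7, 12.9 and 9.41 CPM against 18.1, 20.8 and 20.9 CPM (0.86 ± 0.12 on the log2 scale, FDR 1.34e-05). Hoxc11 showed the largest estimate in this comparison, with 1.26, 1.28 and 1.29 CPM against 3.32, 3.41 and 3.64 CPM (1.43 ± 0.22, FDR 3.96e-05). Its CD26- values are nearly the same in all 3 libraries, at 13 to 19 counts each. Hoxc9 was measured at 9.00, 8.28 and 9.48 CPM against 16.6, 18.7 and 16.9 CPM (0.96 ± 0.15, FDR 3.99e-05). Hoxb7 and Hoxb8, neighbors in the Hoxb cluster, had log2 fold changes of 0.88 ± 0.14 (FDR 5.81e-05) and 0.97 ± 0.17 (FDR 0.000123). The Hoxb7 libraries ran from 4.74 to 5.14 CPM in CD26- and from 8.89 to 9.39 CPM in CD26+ NFs, those of Hoxb8 from 4.36 to 7.00 and from 10.8 to 12.0 CPM, and neither gene overlapped between the groups.

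Of the genes with a known mammary role, Hoxb9, Hoxc6, Hoxc8 and Hoxa9 were higher too, and Hoxd10 was too low to test. Hoxb9 rose from 37.5, 35.8 and 40.5 CPM in CD26- to 74.6, 91.9 and 90.6 CPM in CD26+ control libraries (1.18 ± 0.27, FDR 0.00141). Hoxc6 had 26.5, 22.3 and 25.1 CPM against 33.5, 35.0 and 40.4 CPM (0.56 ± 0.11, FDR 0.000382), and Hoxc8 27.8, 27.2 and 26.4 CPM against 41.0, 43.2 and 38.5 CPM (0.59 ± 0.14, FDR 0.00156). These 2 abundant genes differed by less, on the log2 scale, than Hoxb9 or Hoxd8, though each separated the groups without overlap. Hoxa9 was at 5.23, 5.98 and 5.96 CPM against 10.4, 10.9 and 12.1 CPM (0.95 ± 0.20, FDR 0.000618). Hoxa5, which is also expressed in lung and gut mesenchyme, was at 3.29, 2.31 and 3.79 CPM against 4.69, 4.44 and 4.30 CPM (0.51 ± 0.18, FDR 0.029). Hoxd9, the low-count member that passed the filter only through CD26+ control libraries, had 0.774, 0.256 and 0.406 CPM against 0.809, 1.26 and 1.56 CPM (1.37 ± 0.36, FDR 0.00383), and its lowest CD26+ library was barely above its highest CD26- library.

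The calls of Hoxa5 (without replicate 2, 10 or 11), Hoxa7 (without 1, 3 or 11) and Hoxb3 (without 2, 3, 10, 11 or 12) were lost when 1 control library was left out. The 7 tested members that did not pass were Hoxa2, Hoxa4, Hoxa6, Hoxa11, Hoxb2, Hoxb4 and Hoxc13, with log2 fold changes from -0.34 (Hoxc13) to 0.70 (Hoxa6). The other higher members ran from 0.55 (Hoxb6) to 1.24 (Hoxb5). Gene Hoxb3 shares 52.9% of its exon bases with the antisense gene Hoxb3os and Hoxa3 shares 25.4% with antisense genes, so these values hold for the gene only if counting used the strand, which the sources do not state.

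By position in the cluster, 3 of 5 tested anterior, 11 of 14 central and 7 of 9 posterior members passed in either direction, where 50.3% of all tested genes did. The median log2 fold changes were 0.35, 0.67 and 0.95 in the same order. By cluster, 6 of 10 tested Hoxa, 6 of 8 Hoxb and 7 of 8 Hoxc members passed. Without Hoxd9 and Hoxa11 the counts were 6 of 7 posterior and 6 of 9 Hoxa members, and Hoxd8 was then the only Hoxd gene tested. The summed level of the posterior members was 1.88 times as high in CD26+ as in CD26- control libraries and that of the central members 1.61 times. Hoxb9 gave 36.6% of the posterior sum in CD26- and 44.1% in CD26+ control libraries. Without Hoxb9 the posterior ratio was close to the central ratio without Hoxc8, as given at the end. Members of a cluster share regulatory sequence and are not independent, so these medians carry no test.

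**Figure D3:**
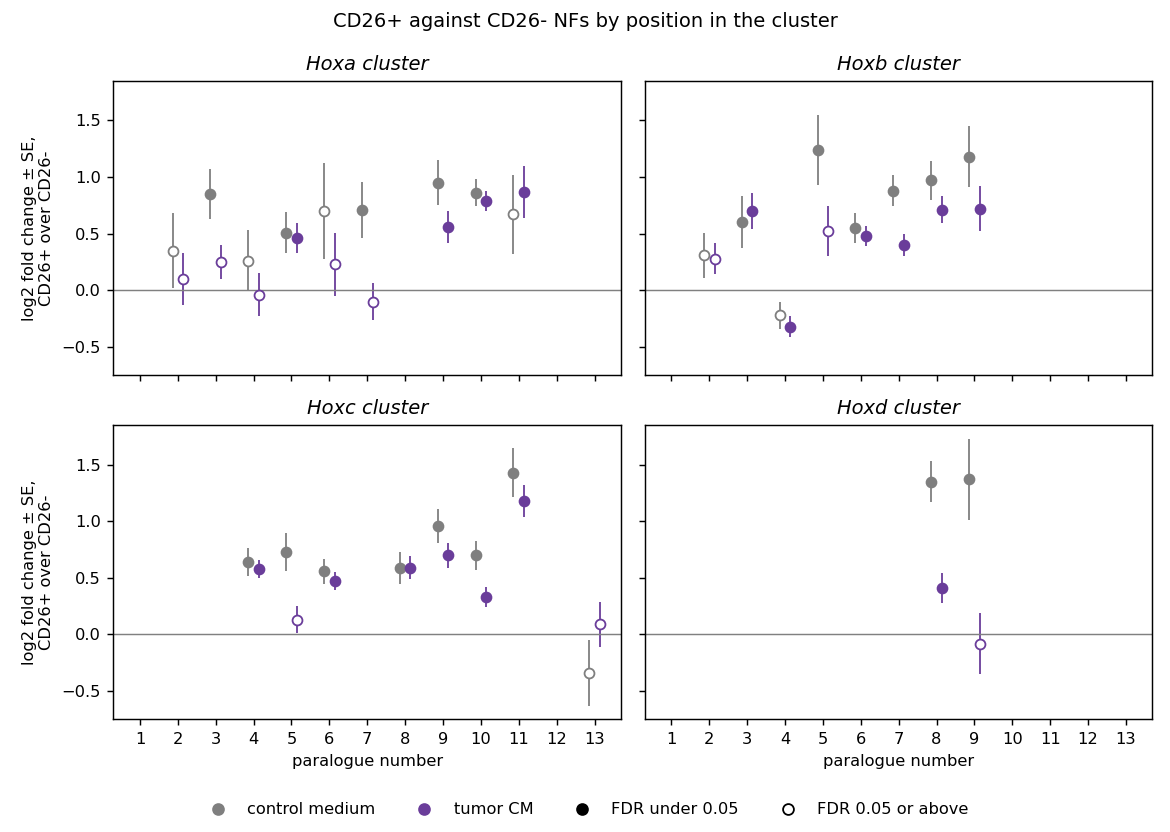
Log2 fold change of CD26+ over CD26- NFs with its SE (vertical axis) against paralogue number, 1 panel per cluster, in control medium (gray) and in tumor CM (purple); filled points have an FDR under 0.05. In control medium the points run from -0.34 at Hoxc13 to 1.43 at Hoxc11, and most points in CM lie lower than their control partner.

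Markers of other cell types moved with the cell type. Epithelial and skeletal muscle marker sums did not overlap between CD26- and CD26+ libraries, and fibroblast marker sums were higher in every CD26+ library than in every CD26- library. With the mean of the epithelial markers as a covariate, 0 members passed in either comparison between the cell types, and 1313 genes passed in control medium and 1325 in CM, with edgeR. The lowest FDR of a called member was then 0.065 in control medium. Over the 21 members called in control medium the median estimate was 0.58 with the covariate, and all 21 kept their sign. Over the 17 called in CM it was 0.40 and 15 kept their sign, while Hoxa9 turned to -0.19 and Hoxd8 to -0.24. With the muscle marker mean as a covariate 19 members passed in control medium and 0 in CM (edgeR), and calls over all genes fell from 8360 to 716 in CM. The 17 members called in CM all kept their sign with that covariate, at a median of 0.48. Since the markers follow the cell type, cell type and marker level cannot be told apart here, and in bulk cultures fewer cells of a type and less RNA per cell cannot be told apart either. The scaling also bears on these values: scaling by the library total lowered every CD26+ over CD26- ratio by 0.14 on the log2 scale, a shift of the median of all genes, and no member called in a comparison of the cell types changed sign under RLE or upper-quartile scaling.

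In CM, more Hox genes were higher in CD26+ NFs than lower. Of the 28 tested members, 16 were higher and 1 lower (15 and 1 of 26 without Hoxd9 and Hoxa11), where 29.3% of all tested genes were higher and 29.3% lower, and the median of the members was 0.44 against -0.00011 over all tested genes. Hoxa10 gave the smallest p, with 9.46 to 12.0 CPM (median 10.2) in the 6 CD26- CM libraries and 15.8 to 20.6 CPM (median 17.6) in the 6 CD26+ CM libraries (0.79 ± 0.09, FDR 5.16e-07). Hoxc11 had 1.5 to 2.56 CPM against 3.31 to 4.95 CPM (1.18 ± 0.14, FDR 1.86e-06), and Hoxc4, the most anterior Hoxc gene, had 6.11 to 8.09 CPM against 9.45 to 11.9 CPM (0.58 ± 0.08, FDR 1.43e-05). These 3 genes did not overlap between the cell types. Nor did Hoxc9, with 6.25 to 11.2 CPM against 12.3 to 16.4 CPM (0.70 ± 0.11, FDR 2.2e-05), or Hoxc6, with 19.8 to 24.9 CPM against 27 to 35.5 CPM (0.47 ± 0.08, FDR 6.18e-05). Hoxc8 overlapped, at 22.9 to 33.7 CPM against 32.7 to 44.9 CPM (0.59 ± 0.10, FDR 5.01e-05).

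Hoxa5 (0.46 ± 0.13, FDR 0.00522), Hoxa9 (0.56 ± 0.14, FDR 0.00177) and Hoxb9 (0.72 ± 0.20, FDR 0.00532) also passed in CM, with overlapping libraries, and the estimate of Hoxa9 had the other sign with the epithelial covariate. Hoxd9 did not, at -0.08 ± 0.27 (FDR 0.846). Hoxb4 was the lower member, at 6.73 to 8.49 CPM in CD26- and 4.88 to 6.58 CPM in CD26+ CM libraries without overlap (-0.32 ± 0.09, FDR 0.00475), and its estimate in control medium was -0.22 ± 0.12 (FDR 0.149). All 17 members that passed in CM also passed when any 1 library was left out, and Hoxb5 passed in addition with the CM line as a block (0.53 ± 0.20, FDR 0.0323). In all, 7 of the 28 tested members did not overlap between the cell types in CM, against 31.7% of all tested genes, a count near that of genes at large.

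In CD26- NFs, CM of tumor cells lowered Hoxb9 and raised Hoxa7 and Hoxb7. These were 3 of the 28 tested members, 2 higher and 1 lower, where 7.88% of all tested genes were higher and 7.28% lower, so the count is near that of genes at large. Control and CM libraries did not overlap in 4 of the 28, against 20.3% of all tested genes. Hoxb9 fell from 37.5, 35.8 and 40.5 CPM to 15.9, 15.1, 19.0, 25.0, 14.2 and 24.8 CPM (-1.0 ± 0.24, FDR 0.00944), and every CM library was below every control library. Hoxa7, a central Hoxa gene, rose from 1.16, 1.45 and 1.15 CPM to 2.64, 2.67, 2.41, 2.18, 2.41 and 1.95 CPM (0.92 ± 0.22, FDR 0.0104), again without overlap. It shares 20.4% of its exon bases with the antisense gene Hoxaas3. Hoxb7 rose from 4.74, 4.95 and 5.14 CPM to 7.21, 6.67, 6.22, 5.03, 7.14 and 6.99 CPM (0.40 ± 0.13, FDR 0.0453), where the 13-MCB-44 library lay among the controls. Hoxc6, Hoxc8 and Hoxc10 differed from control by -0.14 ± 0.10, -0.03 ± 0.12 and -0.02 ± 0.11 on the log2 scale, with an FDR of 0.363, 0.888 and 0.914.

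Without CD26- control replicate 3 no member passed (edgeR), with an FDR of 0.0561 for Hoxb9 and 0.0707 for Hoxa7. The share of all tested genes that passed then fell from 15.2% to 5.69%. Hoxb7 was lost under DESeq2 (FDR 0.0739) and in most fits that left out a library. With the CM line as a block all 3 passed, and Hoxa9 was added as higher (0.43 ± 0.14, FDR 0.0332), where 26.5% of all tested genes passed in place of 15.2%. In that fit the difference between lines does not enter the error of CM against control. At an unadjusted p under 0.05, 6 members passed with all libraries (30.4% of all tested genes). The skeletal muscle markers moved with this comparison, since 5 of the 6 tested were higher in CM in CD26- NFs with a median log2 fold change of 3.96 over the 6. Acta1, which gave most of the summed level, differed by -0.37 (FDR 0.348), so the sums of 48.9 to 76.3 CPM in control and 47.3 to 127 CPM in CM overlapped. With their mean as a covariate, 0 Hox genes and 2 genes in all passed, and their part in the result was not tested further. Pericyte markers summed to 160 to 173 CPM in control and 56.9 to 109 CPM in CM (2 of 5 tested lower and 0 higher, median -0.53). Adipocyte markers summed to 14.3 to 16 CPM in control and 16.9 to 27.9 CPM in CM, with 0 of 3 tested past the FDR (edgeR; 1 at an unadjusted p under 0.05). The part of these markers was not tested.

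In CD26+ NFs, CM lowered 6 of the 28 tested Hox genes and raised 0, where 13.4% of all tested genes were lower and 15.2% higher. In either direction 6 of the 28 passed, against 28.6% of all tested genes, so the count is not above that of genes at large. Without Hoxd9, which passed the filter only through the CD26+ control libraries, and Hoxa11, 5 of 26 were lower. Fibroblast markers moved in the same comparison, with a summed level of 62800 to 80200 CPM in control and 28800 to 52500 CPM in CM, where 3 of the 9 were higher and 4 lower. Adipocyte markers summed to 22.3 to 37.8 CPM in control and 32.7 to 89.1 CPM in CM (1 of 3 tested higher and 0 lower). The part of these markers in the result was not tested. At an unadjusted p under 0.05 the count of Hox genes was 9 (39.6% of all tested genes). Hoxb9 changed most, from 74.6, 91.9 and 90.6 CPM in control to 21.8, 22.4, 27.6, 40.2, 24.7 and 50.9 CPM in CM (-1.46 ± 0.22, FDR 0.000135). Even the 2 highest CM libraries, of lines 13-MCB-44 and 13-MCB-138, were below the lowest control library. Hoxd8 fell from 21.5, 26.8 and 26.4 CPM to 15.2, 14.7, 14.4, 11.3, 13.4 and 15.4 CPM (-0.83 ± 0.14, FDR 0.000407), and its 6 CM libraries lay within 5 CPM of each other. Hoxd9, the posterior neighbor of Hoxd8, had 0.809, 1.26 and 1.56 CPM in control and 0.606, 0.750, 0.591, 0.476, 0.266 and 0.715 CPM in CM, at no more than 21 counts per library. Its estimate of -1.08 ± 0.29 (FDR 0.0093) is set against the group that let it be tested, so a lower value in CM was favored by the filter.

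Hoxc10, the most abundant posterior Hoxc gene, fell from 44.9, 52.7 and 47.1 CPM to 28.7, 36.8, 35.0, 38.9, 37.0 and 44.0 CPM (-0.40 ± 0.11, FDR 0.00937). Hoxb8 fell from 12.0, 10.8 and 11.3 CPM to 5.76, 9.15, 8.44, 8.16, 7.98 and 9.92 CPM (-0.46 ± 0.14, FDR 0.0182). Hoxc5 fell from 11.8, 11.9 and 12.1 CPM to 6.06, 8.63, 6.92, 9.20, 9.58 and 11.0 CPM (-0.48 ± 0.14, FDR 0.0189). None of these 6 genes overlapped between control and CM (8 of the 28 tested members and 25.3% of all tested genes did not), and in all of them but Hoxd9 the library of line 13-MCB-138 came nearest to the controls. Hoxc5 shares 5.37% of its exon bases with Hoxc10 on the same strand. Hoxa10 (-0.15 ± 0.10, FDR 0.279) and Hoxc8 (-0.04 ± 0.12, FDR 0.858) did not pass, nor did any of the 10 tested Hoxa members. Of the 5 lower genes other than Hoxd9, 2 lie in Hoxb, 2 in Hoxc and 1 in Hoxd, and by position 3 are central and 2 posterior. Hoxb9 and Hoxd8 passed in every alternative. Leaving out any of the 3 CD26+ control libraries left 4 members, without replicate 10 (Hoxb8 and Hoxc5 lost), without replicate 11 (Hoxc5 and Hoxc10 lost) or without replicate 12 (Hoxc5 and Hoxd9 lost). The share of all tested genes that passed was then 20.7%, 19% and 20.4% in the same order, in place of 28.6%. Without replicate 18, the 13-MCB-138 library, 9 members passed (Hoxc6 and Hoxc9 added as lower and Hoxc11 as higher), and 34.9% of all tested genes in place of 28.6%. With the CM line as a block, 8 members and 36.6% of all tested genes passed, with Hoxc6 added as lower (FDR 0.0248) and Hoxc13 as higher (0.44 ± 0.13, FDR 0.0163). In that fit the difference between lines does not enter the error of CM against control, and control libraries have no line to pair with. The Hoxc13 library of 13-MCB-90, at 5.68 CPM, lay below the controls (5.91 to 6.38 CPM). The 3 CD26+ control libraries also enter the cell type comparison in control medium, so a gene that is high in them counts in both comparisons.

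**Figure D4:**
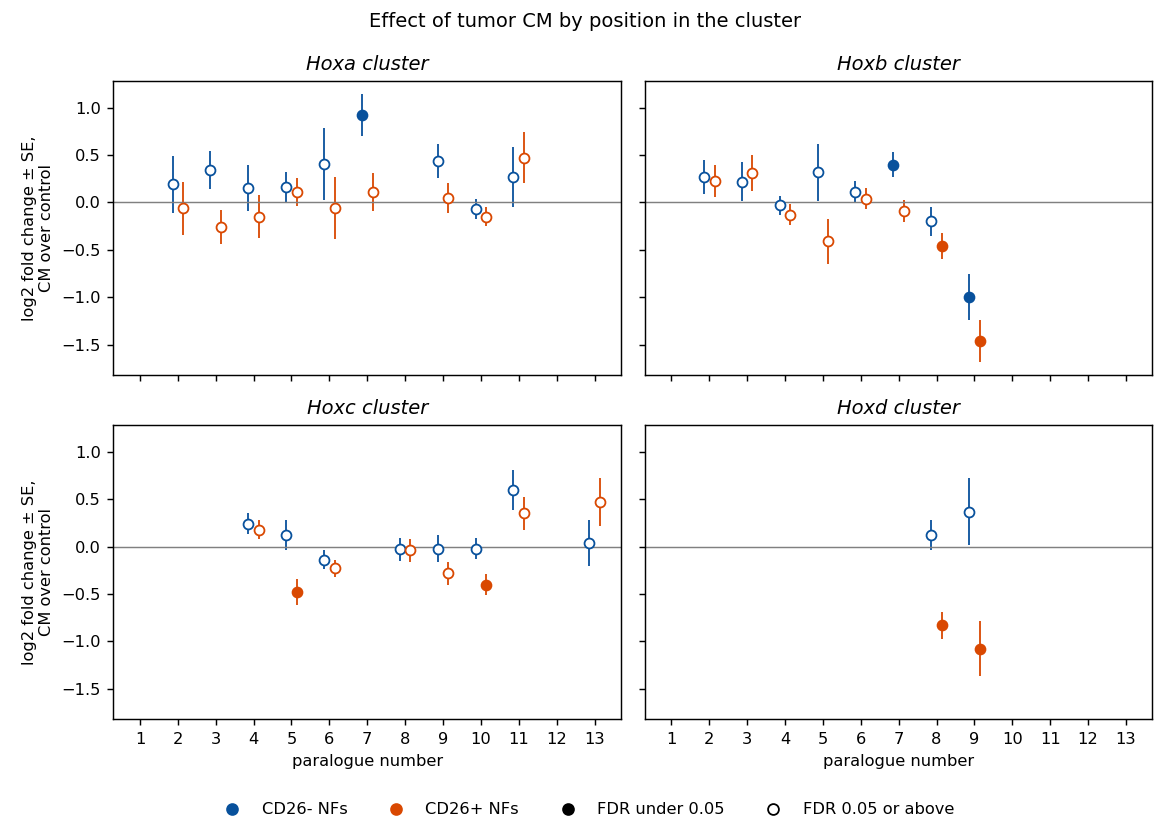
Log2 fold change of CM over control medium with its SE (vertical axis) against paralogue number, 1 panel per cluster, in CD26- NFs (blue) and CD26+ NFs (orange); filled points have an FDR under 0.05. Hoxb9 lies lowest in both cell types, at -1.0 and -1.46, and Hoxd8 and Hoxd9 lie below 0 in CD26+ NFs and above 0 in CD26- NFs. Hoxd9 passed the filter only through the CD26+ control libraries, which favors a lower value in CM there.

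Whether the cell types responded differently was tested by the difference between both CM effects. Of the 28 tested members, 0 were higher and 1 was lower at the FDR, where 4.53% of all tested genes were higher and 3.01% lower, a count near that of genes at large. That member was Hoxd8, at -0.94 ± 0.22 (FDR 0.0154): CM moved it by 0.12 ± 0.16 in CD26- NFs, where CM libraries had 12.2, 10.5, 11.8, 6.68, 9.62 and 12.9 CPM, and by -0.83 ± 0.14 in CD26+ NFs. Pericyte markers had a median of 0.82 in the same contrast, with 2 of 5 tested higher and 0 lower, and their part was not tested. Skeletal muscle markers had a median of -3.57 there, with 0 of 6 tested higher and 1 lower. With their mean as a covariate the estimate of Hoxd8 was -1.06 with an FDR of 0.373, and no member and 0 genes in all passed (edgeR). With the epithelial mean as a covariate Hoxd8 passed, at -0.88. In CM its level still differed between the cell types (0.41 ± 0.13, FDR 0.01), with overlapping libraries, though it passed with neither covariate, at -0.24 with the epithelial and 0.25 with the muscle mean. Without CD26+ control replicate 11 the FDR of the difference was 0.0511 and no member passed, where 2.33% of all tested genes did in place of 7.53%. Without replicate 1 or 10 the count was 2 members (Hoxd9 added), where 4.31% and 4.28% of all tested genes passed. Without replicate 7 it was also 2 (Hoxb7 added), where 9.34% passed. Hoxd9 had a larger estimate with a larger error (-1.45 ± 0.45, FDR 0.057). It passed the filter only through the CD26+ control libraries, so a negative difference was favored by the filter. Hoxb9, which fell in both cell types, had a difference of -0.46 ± 0.33 (FDR 0.426) and Hoxa7 one of -0.81 ± 0.30 (FDR 0.101).

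Since each line gave CM to 1 culture of either cell type, the line can serve as a block, and this moved the count. With the block 4 members passed, where 17.6% of all tested genes did, so the count is not above that of genes at large. All 4 had a more negative response in CD26+ NFs: Hoxd8 (-0.93 ± 0.14, FDR 0.000982), Hoxb9 (-0.49 ± 0.13, FDR 0.0185), Hoxc10 (-0.37 ± 0.12, FDR 0.0447) and Hoxc5 (-0.61 ± 0.20, FDR 0.0464). Without replicate 18 the count was also 4 (Hoxc5, Hoxc10, Hoxd8 and the filter-dependent Hoxd9), where 16.4% of all tested genes passed, again not above genes at large. Of the 28 estimates 24 were 0 or negative, with a median of -0.26 against 0.0063 over all tested genes. Cell type contrasts of both media enter this value, so it repeats the drop of the median from 0.70 in control medium to 0.44 in CM.

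Differences among the 6 lines were tested over the 12 CM libraries, with cell type as a term. Hoxb9 was the member that passed (FDR 0.00779), 1 of 27 tested, where 6.56% of all genes in that fit passed. Lines 13-MCB-44 and 13-MCB-138 gave the highest Hoxb9 level in both cell types, 25.0 and 24.8 CPM in CD26- and 40.2 and 50.9 CPM in CD26+ NFs, against 14.2 to 19.0 and 21.8 to 27.6 CPM with the other lines. Hoxb9 passed in every alternative to this test. The next member was Hoxc13 (FDR 0.0643), a gene of the far end of Hoxc known from hair and nail, which passed under DESeq2. Its CD26- CM libraries had 5.68, 5.33, 11.7, 8.63, 6.05 and 11.2 CPM and its CD26+ CM libraries 8.72, 6.98, 9.46, 9.43, 5.68 and 11.4 CPM. Line 13-MCB-138 was among the highest for Hoxc13 in both cell types, and 10-SJK-221 and 13-MCB-90 were among the lowest.

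**Figure D5:**
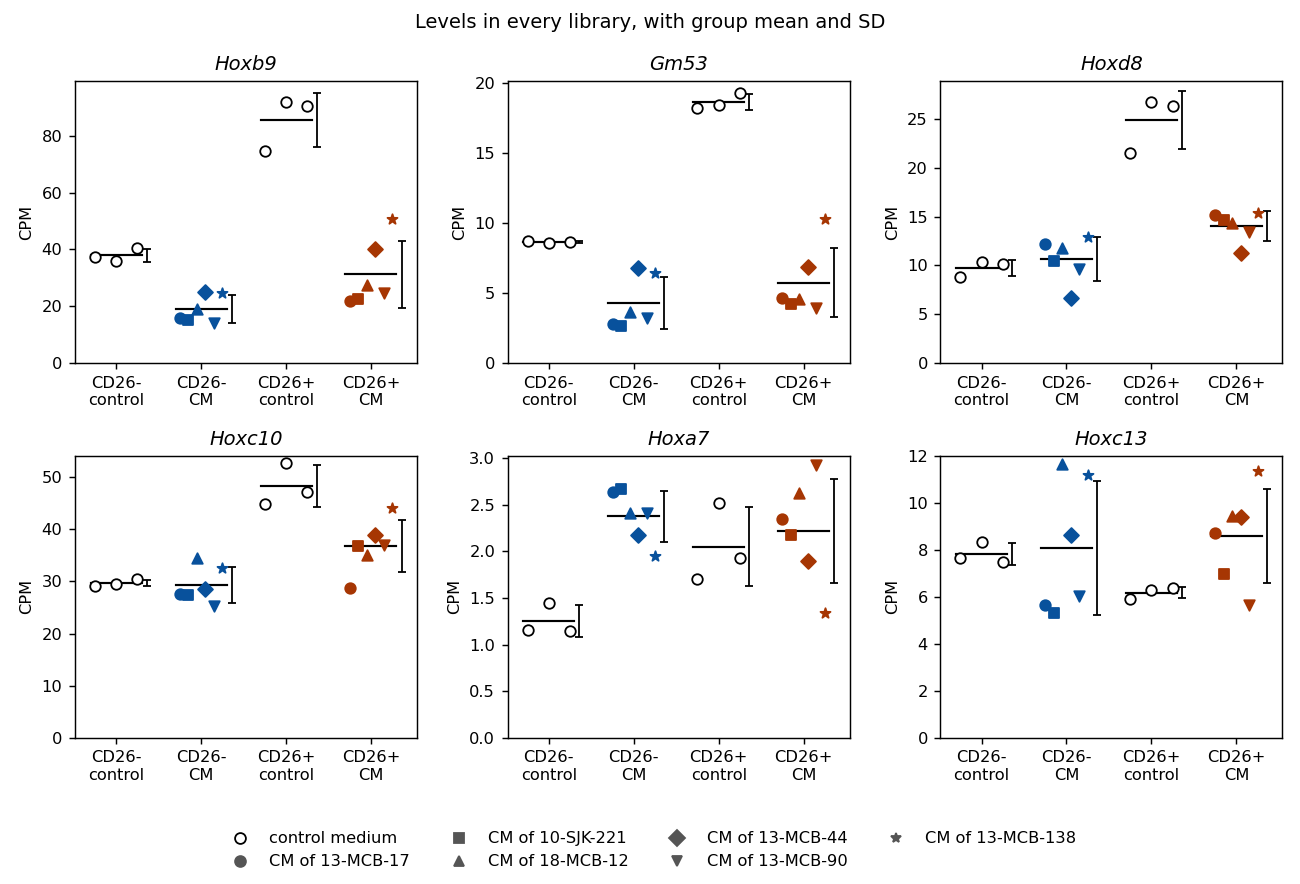
CPM in every library (vertical axis, linear from 0) of 5 Hox genes and of Gm53, the non-coding gene next to Hoxb9, by group; open circles are control libraries, filled symbols give the CM line, bars are group means and whiskers SD. Hoxb9 and Gm53 show the same order of groups, with the 13-MCB-44 and 13-MCB-138 libraries at the top of the CM groups, and Hoxd8 separates CD26+ control libraries from the other 3 groups.

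The rows between the Hox genes were read next. Within the outermost Hox genes of the 4 clusters lie 46 other rows, mostly antisense genes and small RNAs, of which 6 could be tested. In control medium 4 of the 6 were higher in CD26+ NFs (25.0% of all tested genes) and 0 lower. Hoxaas2, Gm11539 and Hoxd3os1 passed the filter only with CD26+ libraries, so for these 3 a higher value in CD26+ NFs was favored by the filter. Of the 3 rows that CD26- libraries alone let pass, 1 was higher (Gm53). Hoxd3os1, an antisense gene of the Hoxd cluster (chromosome 2, 74703248 to 74716130), stood at 0.301 ± 0.0366 CPM in CD26- and 0.984 ± 0.267 CPM in CD26+ control libraries (SD, n = 3; log2 fold change 1.69 ± 0.41, FDR 0.00207), and 0.75 ± 0.28 in CM (FDR 0.0269). Gm53, a long non-coding RNA gene on the strand of Hoxb9 and before its start (chromosome 11, 96251105 to 96264868), shares no exon base with Hoxb9. Gm53 had 8.71, 8.54 and 8.66 CPM in CD26- control and 18.2, 18.4 and 19.3 CPM in CD26+ control libraries (1.11 ± 0.32, FDR 0.00756). In CM Gm53 stood at 2.80, 2.67, 3.66, 6.76, 3.18 and 6.46 CPM in CD26- NFs (-1.03 ± 0.30, FDR 0.0275) and at 4.62, 4.20, 4.56, 6.82, 3.90 and 10.3 CPM in CD26+ NFs (-1.71 ± 0.27, FDR 0.000186). As with Hoxb9, CM and control libraries did not overlap and the 13-MCB-44 and 13-MCB-138 libraries were highest, and Gm53 passed the test among lines (FDR 0.0156).

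Outside the clusters, within 200 kb of the outermost Hox gene, 10 of 51 rows could be tested. In control medium 1 was higher in CD26+ NFs (Atp5g1, a subunit of ATP synthase, 0.26 ± 0.09, FDR 0.0212) and 2 were lower, Smug1 (-0.31 ± 0.08, FDR 0.00284), a DNA glycosylase, and Ube2z (-0.14 ± 0.05, FDR 0.0432), a ubiquitin-conjugating enzyme. The median of the flanking genes was -0.12. The shares of all tested genes are 25.0% higher and 25.4% lower. In CM, where they are 29.3% in each direction, 0 were higher and 2 lower, Smug1 (-0.20 ± 0.06, FDR 0.00521) and Cbx5 (-0.29 ± 0.08, FDR 0.00583), which encodes a heterochromatin protein.

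Hox proteins act with TALE cofactors, and 11 of 12 listed genes of that class were tested. In control medium 6 were higher and 1 was lower in CD26+ NFs, with a median log2 fold change of 0.56, and in CM 8 were higher and 1 lower, with a median of 0.38. For this list and those that follow, 25.0% of all tested genes were higher and 25.4% lower in control medium and 29.3% in each direction in CM, with medians of 0.0064 and -0.00011. Pknox2 stood at 6.35 ± 0.704 CPM in CD26- and 27.9 ± 3.56 CPM in CD26+ control libraries (2.14 ± 0.23, FDR 9.75e-07), and 1.72 ± 0.17 in CM (FDR 1.6e-07). Meis2 had 17.2 ± 1.64 against 31.6 ± 1.01 CPM (0.87 ± 0.12, FDR 1.23e-05) in control medium, and Meis1 passed in CM with 18.6 ± 1.84 against 28.2 ± 2.35 CPM (0.60 ± 0.07, FDR 1.14e-06). Tgif1, a TALE class repressor of TGF-beta signaling, was the lower gene in both media, at -1.25 ± 0.13 (FDR 4.87e-07) and -0.73 ± 0.09 (FDR 1.85e-06). CM itself raised 1 and lowered 1 of these genes in CD26- NFs, and raised 2 and lowered 4 in CD26+ NFs, where 7.88% and 7.28% of all tested genes rose and fell in CD26- and 15.2% and 13.4% in CD26+ NFs.

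Polycomb proteins keep Hox genes silent outside their domain, and trithorax proteins keep them active. Of 32 Polycomb genes, all tested, CD26+ NFs had 10 higher and 12 lower in control medium (median -0.08), and 6 were higher and 11 lower in CM (median 0.06). Higher in control medium were Ring1 (0.70 ± 0.12, FDR 0.000101) and Bmi1 (0.41 ± 0.07, FDR 0.000207), and lower were Pcgf5 (-1.16 ± 0.16, FDR 8.29e-06) and Phc2 (-0.67 ± 0.09, FDR 1.18e-05), all 4 from the PRC1 complex. In CM, Rnf2 (0.31 ± 0.04, FDR 9.49e-07) and the PRC2 partner Jarid2 (0.41 ± 0.08, FDR 0.000241) were higher, and Epop, another PRC2 partner (-1.21 ± 0.14, FDR 6.75e-07), and Phc2 (-0.57 ± 0.07, FDR 9.88e-07) were lower. Of 14 trithorax and H3K27 demethylase genes, 2 were higher and 2 lower in control medium and 4 higher and 3 lower in CM. Men1 (0.48 ± 0.07, FDR 1.84e-05) and Kmt2c (0.49 ± 0.14, FDR 0.00761) were higher in control medium, and Dpy30 (-0.72 ± 0.11, FDR 3.64e-05) and the H3K79 methyltransferase gene Dot1l (-0.27 ± 0.09, FDR 0.0128) were lower. In CM the named genes of this list were Men1 (0.22 ± 0.05, FDR 0.00106), Kmt2c (0.38 ± 0.10, FDR 0.00281), Dpy30 (-0.81 ± 0.08, FDR 1.56e-07) and Psip1 (-0.36 ± 0.08, FDR 0.000953). Neither list had a median beyond 0.1 on the log2 scale in a comparison of the cell types.

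Retinoic acid is a known inducer of Hox genes in embryos, and 16 of 19 genes of its pathway were tested. In control medium 7 were higher and 2 lower in CD26+ NFs, and in CM 6 were higher and 2 lower. The retinol carrier gene Rbp4 was at 3.08 ± 0.172 CPM in CD26- and 21.2 ± 2.47 CPM in CD26+ control libraries (2.77 ± 0.22, FDR 3.58e-08), and the receptor gene Rxra at 91.8 ± 2.79 against 177 ± 12.4 CPM (0.95 ± 0.08, FDR 7.21e-08). Aldh1a1, which makes retinoic acid, was at 2.59 ± 0.229 against 0.591 ± 0.193 CPM (-2.13 ± 0.30, FDR 1.31e-05), and the binding protein gene Crabp1 at 26.4 ± 3.55 against 4.16 ± 0.469 CPM (-2.66 ± 0.73, FDR 0.00556). In CM, Rbp4 (1.96 ± 0.13, FDR 2.76e-09) and Cyp26b1, which breaks retinoic acid down (1.78 ± 0.16, FDR 4.6e-08), were higher, and Aldh1a1 (-0.90 ± 0.15, FDR 5.19e-05) and the receptor gene Rarb (-0.63 ± 0.16, FDR 0.00202) were lower. CM raised 6 and lowered 2 of the 16 in CD26- NFs, where 7.88% of all tested genes rose and 7.28% fell. In CD26+ NFs CM raised 5 and lowered 6, where 15.2% of all tested genes rose and 13.4% fell.

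Of 52 other transcription factor genes with a known positional role, 33 were tested. In control medium 15 were higher and 5 lower in CD26+ NFs, with a median log2 fold change of 0.55, and in CM 13 were higher and 8 lower, with a median of 0.38. Shox2, a gene of the proximal limb, stood at 20.9 ± 1.14 CPM in CD26- and 44.1 ± 2.56 CPM in CD26+ control libraries (1.07 ± 0.11, FDR 3.78e-07). Tbx5, the forelimb T-box gene, had 0.938 ± 0.297 against 7.40 ± 1.55 CPM (2.96 ± 0.31, FDR 6.13e-07). In CM the leading higher genes were Tbx15 (1.17 ± 0.09, FDR 1.68e-08), known from dorsal skin, and Tbx18 (1.02 ± 0.09, FDR 7.23e-08). Lower genes were Irx2 in control medium (-1.01 ± 0.12, FDR 3.16e-06), Msx2 in both media (-2.09 ± 0.27, FDR 6.53e-06, and -1.93 ± 0.19, FDR 1.87e-07) and Foxf1 in CM (-1.55 ± 0.19, FDR 1.64e-06). The marker levels of epithelial and muscle cells given above moved with these lists too, and their part was not tested.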

How the data were processed

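Polyadenylated RNA was measured with stranded single-end libraries. The authors deposited raw counts per Ensembl gene without normalization. The submitters' processing notes name HISAT2 2.1.0, HTSeq and build GRCm38; the strand setting and annotation release are not given in the sources used here. All 39 Hox genes matched GENCODE M21 by ID and position. A row without a gene held 0 counts and was left out; no library was. Between libraries of a group the chi-square of the counts was at least 3.22 times its degrees of freedom, so none was counted as a copy.

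Genes were kept by filterByExpr (14273 genes; 13344 in the line fit), scaled with TMM and tested with the quasi-likelihood test of edgeR 4.0.16 in R 4.3.3, with 1 term per group and all 18 libraries. "Passed", "rose" and "fell" stand for an FDR under 0.05 over all tested genes; the study's methods use DESeq2 and a log2 limit of 2, and DESeq2 1.42.0 was an alternative. The script was tested on simulated data. Values per library or mean ± SD are CPM, and log2 fold changes carry the SE of the same test. Intervals and floors (3 counts) cover counting error only. No sequencing batch is labeled.

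Libraries given CM of the same line deviated together, with r from 0.247 to 0.406 in the 6 pairs, so the line pairs the samples. Leaving out Hoxd9 and Hoxa11 from the counts was added after the data were seen. Other alternatives were RLE and upper-quartile scaling, no filter, only the groups compared, a marker covariate, and leaving out each library.

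Hox genes and lists were chosen with earlier results of these data known. Named are members past the FDR with a group mean of at least 1 CPM, at most 6 per direction and comparison by p and at most 4 for the lines, always Hoxa5, Hoxa9, Hoxb9, Hoxc6, Hoxc8, Hoxd9 and Hoxd10, and the 2 leading genes per direction of each other list in the comparisons of the cell types. Hoxc13 and Gm53 in CM were added after their values were seen. Values of 1 Hox gene are not reported here and are left out of the figures, and it stays in the counts and sums.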

Additional observations from a re-analysis of the deposited data

Results flagged for a closer look

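In the main fit Hoxd8 is the Hox gene whose response to tumor CM differed between the cell types in the test of the difference itself. Its estimate was -0.94 on the log2 scale (CM effect in CD26+ NFs minus that in CD26- NFs). The call was lost without CD26+ control replicate 11 (FDR 0.0511) and with the muscle marker covariate (FDR 0.373). With the CM line as a block Hoxb9, Hoxc5 and Hoxc10 passed as well, where 17.6% of all tested genes did. Among 56 sets of 6 CM libraries, the 28 tested members in each cell type, no library stood out from the other 5 by Dixon's test, where 2.8 would be expected by chance. That test looks at 1 gene at a time. Leaving out CD26+ CM replicate 18, of line 13-MCB-138, moved the difference in CM effect from 1 to 4 members (from 1075 to 2345 genes in all) and the CM effect in CD26+ NFs from 6 to 9 members.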

How the results depend on the processing

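Apart from the marker covariates, 17 of the 21 members called between the cell types in control medium passed in every alternative, with Hoxa5, Hoxa7 and Hoxb3 among the exceptions, and all 17 called in CM did. In CD26+ NFs 2 of 6 CM calls passed in every alternative (Hoxb9 and Hoxd8), and in CD26- NFs 0 of 3. With the CM line as a replicate block the difference in CM effect had 4 lower members in place of 1. The share of all tested genes in either direction was then 17.6% in place of 7.53%. The CM effect in CD26+ NFs had 1 higher member in place of 0, with 36.6% of all tested genes in place of 28.6%. The block ended no call.

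With the epithelial covariate the comparison of the cell types had 0 higher and 0 lower members in either medium, and the CM effect in CD26- NFs had 1 higher; Hoxa9 and Hoxd8 turned to -0.19 and -0.24 in CM. With the muscle covariate the counts were 0 for both directions between the cell types in CM, for both directions of the CM effect in CD26- NFs and for the difference in CM effect, while the 17 members called between the cell types in CM kept their sign at a median of 0.48, where calls over all genes fell to 716. Hoxd9 turned to 0.35 in CM. Higher members of the CM effect in CD26- NFs were 1 in place of 2 with RLE scaling, no filter or DESeq2. Lower members in control medium were 2 with only the groups compared. Line calls were 4 without the filter and 2 with DESeq2. The cause was not tested.

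Leaving out 1 library gave 0 to 1 lower members in control medium, 0 to 3 higher and 0 to 1 lower for CM in CD26- NFs, 0 to 1 higher for CM in CD26+ NFs, 0 to 4 lower for the difference, and 1 to 2 for the lines. Hoxd9 between the cell types in CM ran from -0.18 to 0.05.

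For summed levels (log2), total-count scaling gave 0.46 (Hoxa), 0.80 (Hoxb), 0.48 (Hoxc), 1.22 (Hoxd), 0.54 (central), 0.76 (posterior) and 0.62 (all) between the cell types in control medium, and 0.30 (Hoxa), 0.29 (central) and 0.33 (all) in CM. Without Hoxb9 the control medium ratios were 0.59 (Hoxb), 0.73 (posterior) and 0.67 (all). CM effects without Hoxb9 turned to 0.10 (Hoxb), 0.05 (posterior) and 0.04 (all) in CD26- NFs and shrank to -0.11, -0.19 and -0.19 in CD26+ NFs. Without Hoxa10, Hoxa was at 0.47 and 0.28 between the cell types and 0.23 for CM in CD26- NFs. Without Hoxd8, Hoxd was at 1.55 in control medium and -1.08 for CM in CD26+ NFs. Without Hoxc8 central members were at 0.72 in control medium. At this depth 11 members were too low to test.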
